A study of Mus musculus with 6 samples.

Results

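Saa3, Cxcl1 and 6 further genes of inflammatory secreted or surface proteins (Ccl2, Ccl5, Ly6a, Ptx3, Lcn2 and Il1rl1) were followed through 6 libraries of mouse embryonic stem cells (ESCs). These 8 genes of 18857 with reads were picked by name from earlier results of the same measurements, so their values are a description and carry no test. PolyA RNA of KH2 cells, an ESC line of C57BL/6 x 129 background, was sequenced as single-end reads of 50 bases, with 1 library per group. The engineered line, genotype iErk1; Erk KO, gave 4 libraries: 96 hours off Dox with PD0325901 during the final 48 hours, kept on Dox, 48 hours off Dox, and 96 hours off Dox. The wild-type KH2 line gave a library treated with PD0325901 for 48 hours and an untreated library. PD0325901 inhibits Mek, the kinase that activates Erk, and Dox (doxycycline) switches on the inducible Erk1 that the name of the engineered line denotes. The labels do not give the inhibitor's dose, the Dox dose, the number of clones or the use of feeder cells. A single library stood for each group, so no value has a replicate check, and every interval below is an exact 95% interval that covers counting error only.

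The genes encode extracellular parts of the innate immune response. Saa3 is a serum amyloid A protein made largely outside the liver, Ptx3 a pentraxin that recognises microbes and binds complement, and Lcn2 a lipocalin that binds bacterial siderophores. Cxcl1 attracts neutrophils through Cxcr2, Ccl2 attracts monocytes through Ccr2, and Ccl5 attracts T cells and monocytes. Il1rl1 is the receptor of the cytokine IL-33 and is also made in a soluble form, and Ly6a (Sca-1) is a surface protein anchored by a lipid that marks several progenitor cells and is induced by interferon. Cytokines such as IL-1 and TNF induce many of these genes through NF-kB and C/EBP transcription factors. In the mouse, Cxcl1 (KC), Ccl2 (JE) and Il1rl1 (T1) are also known as genes that growth factors switch on in fibroblasts.

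Promoter sequence was available in the RefSeq table for 5 of the 8 genes, and 5 windows of 4 of them are shown because the results below turn on these genes. Each is the 250 bases before the annotated start on GRCm38.p6, written 5′ to 3′. The windows are Saa3 (chr7:46715677-46715926, minus strand), Ptx3 (chr3:66219637-66219886, plus strand), Cxcl1 (chr5:90890995-90891244, plus strand), and the distal (chr1:40429320-40429569, plus strand) and proximal (chr1:40439379-40439628, plus strand) starts of Il1rl1. Capitals mark matches, on either strand, to the C/EBP letters TTGCNNAA, the interferon-response letters TTTCNNTTTC or the NF-kB consensus.
Saa3: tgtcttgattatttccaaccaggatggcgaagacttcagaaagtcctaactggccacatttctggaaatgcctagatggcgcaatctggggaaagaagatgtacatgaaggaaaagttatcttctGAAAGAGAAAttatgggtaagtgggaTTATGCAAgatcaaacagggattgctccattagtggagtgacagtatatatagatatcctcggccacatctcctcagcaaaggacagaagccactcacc
Ptx3: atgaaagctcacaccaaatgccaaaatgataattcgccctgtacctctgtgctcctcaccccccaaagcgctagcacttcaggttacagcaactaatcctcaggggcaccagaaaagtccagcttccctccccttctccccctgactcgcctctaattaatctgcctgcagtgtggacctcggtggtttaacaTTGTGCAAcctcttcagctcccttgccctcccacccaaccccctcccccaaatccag
Cxcl1: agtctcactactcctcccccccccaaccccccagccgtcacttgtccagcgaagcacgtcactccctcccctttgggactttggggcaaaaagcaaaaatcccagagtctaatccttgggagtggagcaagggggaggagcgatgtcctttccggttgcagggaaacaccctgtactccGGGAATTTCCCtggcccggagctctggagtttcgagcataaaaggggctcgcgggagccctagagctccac
Il1rl1 distal: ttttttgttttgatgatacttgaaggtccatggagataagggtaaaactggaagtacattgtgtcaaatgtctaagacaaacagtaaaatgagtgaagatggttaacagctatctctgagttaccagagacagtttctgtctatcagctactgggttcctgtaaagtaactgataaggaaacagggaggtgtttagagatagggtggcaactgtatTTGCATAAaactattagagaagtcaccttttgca
Il1rl1 proximal: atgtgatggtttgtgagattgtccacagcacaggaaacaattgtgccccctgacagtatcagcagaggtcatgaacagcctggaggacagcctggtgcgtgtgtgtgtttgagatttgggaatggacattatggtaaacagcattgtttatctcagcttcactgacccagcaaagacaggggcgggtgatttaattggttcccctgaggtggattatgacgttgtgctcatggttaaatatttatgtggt

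The Cxcl1 window held the NF-kB consensus as GGGAATTTCC, 71 to 62 bases before the start, and the 2 strands gave overlapping matches there. That consensus was held by 7.25% of the 32817 windows of this length given by RefSeq, and by none of the other member windows. The C/EBP letters, held by 9.57% of windows, occurred as TTATGCAA in Saa3, TTGTGCAA in Ptx3, TTGCTCAA in Lcn2 (whose window is not shown) and TTGCATAA at the distal start of Il1rl1. The interferon-response letters (2.97% of windows) matched in Saa3 as GAAAGAGAAA. The AP-1 letters TGANTCA (6.75% of windows) and TATAAA (12.4%) were searched as well and matched in none of the 6 member windows. These matches describe letters in these windows and say nothing of binding.

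Library totals ran from 9.05 to 9.95 times 1e6 uniquely mapped reads. RPKM is reads per kilobase of gene and per 1e6 of these reads. The Erk1 gene Mapk3 had 9.18, 14.8, 6.86 and 6.75 RPKM in the engineered line (treated at 96 hours, with Dox, 48 hours and 96 hours without), against 52.8 and 56.4 RPKM in treated and untreated KH2 cells. All 14 ES cell markers searched had at least 1 RPKM in every library, and their summed level was between 3207 and 4555 RPKM. The 27 fibroblast markers were also present in every library, summing to 1592 RPKM in the treated and 617, 611 and 687 RPKM in the other engineered libraries, against 4060 RPKM in treated and 1257 RPKM in untreated KH2 cells. The 15 macrophage and leukocyte markers summed to between 41.7 and 61.1 RPKM, of which Laptm5 gave between 21.6 and 48.0 RPKM. The pan-leukocyte gene Ptprc and Cd52 had 0 reads in treated KH2 cells only, the macrophage gene Adgre1 had 0 reads in 2 libraries (with Dox and untreated KH2), and Fcgr1, Aif1 and Tyrobp had 0 reads in 3 libraries each. The 12 endothelial markers summed to between 45.1 and 72.1 RPKM. In such bulk samples fewer cells of a type and less RNA per cell cannot be told apart.

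**Figure D1:**
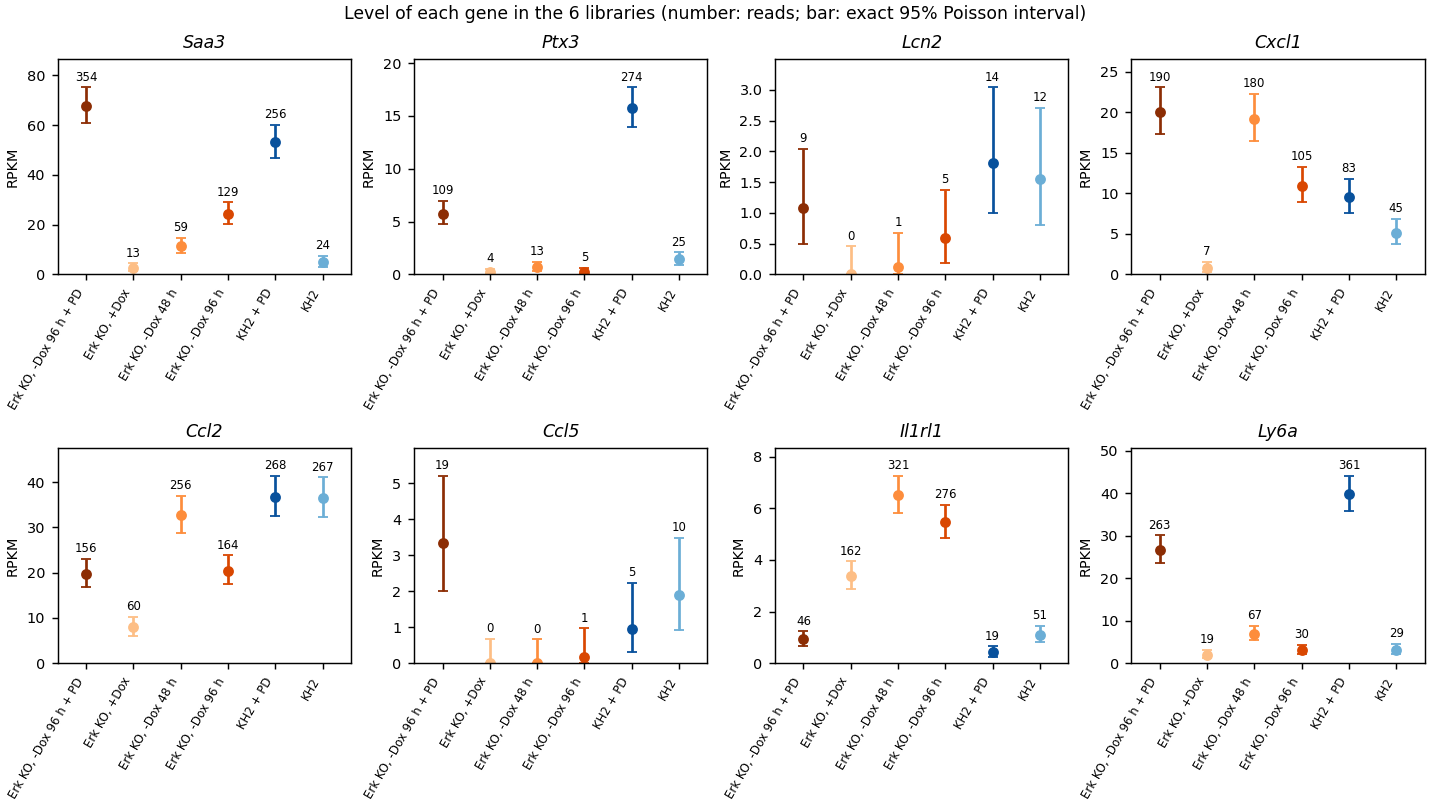
RPKM (linear axis) of the 8 genes in the 6 libraries, with the number of reads above each point and bars for the exact 95% Poisson interval. Saa3, Ptx3 and Ly6a were highest in the PD0325901 libraries, Cxcl1 and Ccl2 were lowest in the engineered line with Dox, and Il1rl1 was highest in the engineered line without Dox.

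Saa3 was high in both PD0325901 libraries and had intermediate levels after Dox withdrawal. It had 67.8 RPKM in the treated engineered line, 2.60 RPKM in that line with Dox, 11.5 RPKM after 48 hours and 24.4 RPKM after 96 hours without Dox, 53.3 RPKM in treated KH2 cells and 4.97 RPKM in untreated KH2 cells. The order of levels was separated at each step beyond counting error except between untreated KH2 cells and the line with Dox, where the ratio of 1.91 had an interval of 0.935 to 4.09. Reads covered 97.9% of the 531 bases of the gene in the library with the most reads and 62.7% in that with the fewest.

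Ptx3 was highest in the 2 libraries given PD0325901. Its levels were 5.76 RPKM in the treated engineered line, 0.221, 0.696 and 0.261 RPKM in that line with Dox, 48 hours and 96 hours without, and 15.7 and 1.43 RPKM in treated and untreated KH2 cells. The 3 engineered libraries without the inhibitor held 4, 13 and 5 reads and were not separated at neighbouring steps of their order beyond counting error. Lcn2 was near the limit of detection throughout, with 9, 0, 1 and 5 reads in the engineered libraries in the same order, and 14 and 12 reads in treated and untreated KH2 cells. A count of 0 allows up to 3 reads, which for Lcn2 in the Dox library is 0.374 RPKM.

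Cxcl1 was high in the engineered line once Dox was withdrawn. It had 20.05 RPKM in the treated engineered line, 0.772 RPKM with Dox, 19.2 RPKM after 48 hours and 10.9 RPKM after 96 hours without Dox, 9.52 RPKM in treated KH2 cells and 5.14 RPKM in untreated KH2 cells. The 2 highest libraries did not differ beyond counting error (ratio 1.04, 0.845 to 1.29), nor did 96 hours without Dox and treated KH2 cells (interval of the ratio 0.854 to 1.55), and the library with Dox, at 7 reads, stood lowest. Ccl2 had 19.7 RPKM in the treated engineered line, 7.91 RPKM with Dox, 32.7 and 20.4 RPKM after 48 and 96 hours without Dox, and 36.7 and 36.4 RPKM in treated and untreated KH2 cells. It was therefore at its highest in KH2 cells and at 48 hours without Dox, which did not differ beyond counting error, and at its lowest with Dox. Ccl5 had 19, 0, 0 and 1 reads in the engineered libraries and 5 and 10 reads in treated and untreated KH2 cells. A count of 0 allows up to 0.551 RPKM of Ccl5 in the Dox library, and the most reads, 19, equalled 3.34 RPKM.

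Il1rl1 had an order unlike that of the ligands. It had 0.921 RPKM in the treated engineered line, 3.39 RPKM with Dox, 6.51 and 5.46 RPKM after 48 and 96 hours without Dox, and 0.413 and 1.10 RPKM in treated and untreated KH2 cells. Both treated libraries and untreated KH2 cells were low, and the 3 engineered libraries without the inhibitor were high. Reads covered at most 50.9% of its 5080 bases, and the files do not separate the membrane and soluble forms. Ly6a had 26.7 RPKM in the treated engineered line, 2.02, 6.89 and 3.01 RPKM with Dox, 48 hours and 96 hours without, and 39.8 and 3.18 RPKM in treated and untreated KH2 cells. Both treated libraries were thus above the other 4. Of its windows of 50 bases 19.0% also occur in transcripts of Ly6c1, Ly6i, Ly6c2 or I830127L07Rik in the GENCODE annotation, so its unique reads are an uncertain measure, whereas the share was 0.00% for Ptx3, Lcn2, Cxcl1, Ccl2 and Ccl5, 0.0438% for Il1rl1 and 4.15% for Saa3. The spans of annotated genes overlap those of Saa3 (Gm31882), Ptx3 (Veph1), Ccl5 (Gm32650) and Ly6a (Gm28068), and the files do not separate strands. Reads in bases that a pair shares would therefore be uncertain, and whether the pairs share exon bases was not examined. Veph1 had its own counts, between 7 and 20 reads a library, where Ptx3 had between 4 and 274.

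Mek inhibition in wild-type KH2 cells was the first of 3 comparisons that the design names. A gene was called when the log2 ratio of RPKM plus 0.5 was at least 1 in size, the higher library reached 1 RPKM, both libraries together had at least 20 reads and the interval of the ratio excluded 1. Of the 8 genes 7 passed the limits on level and 3 were called higher, where 3.86% of 12787 genes were, and 0 were called lower, where 1.22% were. Folds are ratios of reads scaled to the library totals, while log2 ratios include the 0.5. Ly6a rose 12.5-fold (8.56 to 18.9), Ptx3 11.01-fold (7.30 to 17.3) and Saa3 10.7-fold (7.04 to 17.0) in treated over untreated KH2 cells.

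The chemokine genes moved less in KH2 cells. Cxcl1 had 83 reads treated and 45 untreated, a ratio of 1.85 (1.27 to 2.73) that excluded 1 but was below the limit of 2. Ccl2 had a ratio of 1.01 (0.848 to 1.20), Ccl5 of 0.502 (0.135 to 1.61) and Lcn2 of 1.17 (0.503 to 2.77), and the last 2 rest on at most 14 reads a library. Il1rl1 had 19 reads treated and 51 untreated, a ratio of 0.374 (0.209 to 0.645). It was not called, with a log2 ratio of -0.81, but with 0.1 in place of 0.5 added to the RPKM it was called lower at -1.23.

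Mek inhibition in the engineered line, 96 hours after Dox withdrawal, was the second. Of the 8 genes 7 passed the limits on level. Of these 4 were called higher, where 1.34% of 11920 genes were, and 1 was called lower, where 0.587% were. Ptx3 rose 22.1-fold (9.18 to 69.3), Ly6a 8.88-fold (6.07 to 13.4) and Saa3 2.78-fold (2.27 to 3.43), and these 3 genes were thus higher with PD0325901 in both lines. Ccl5 also passed, with 19 reads treated and 1 untreated, a ratio of 19.2 (3.06 to 799). Il1rl1 fell 5.93-fold (4.32 to 8.28) to 46 reads treated, against 276 untreated. Ptx3 and Ccl5 were below 1 RPKM untreated, and Il1rl1 was below 1 RPKM treated. Each thus passed only through the library where it was high.

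Cxcl1 had a ratio of 1.83 (1.44 to 2.35) in the engineered line, close in value to its 1.85 in KH2 cells. Ccl2 had a ratio of 0.963 (0.769 to 1.21) and Lcn2 of 1.82 (0.549 to 6.92) on 9 and 5 reads. The pairs share no library, but with 1 library each the difference between them was not tested.

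**Figure D2:**
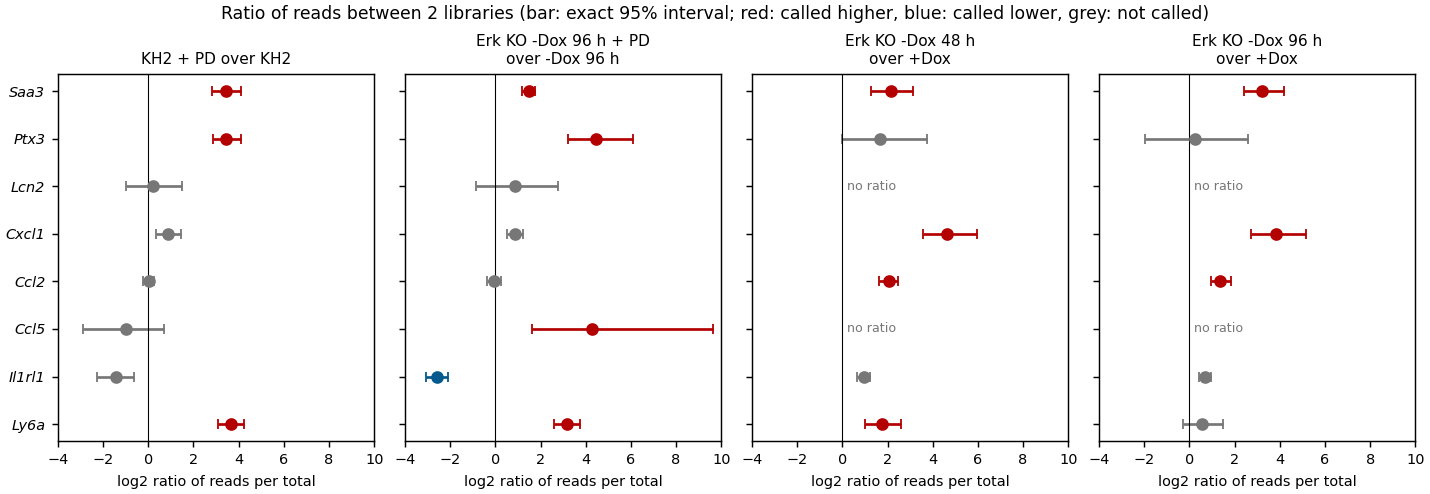
Log2 ratio of reads per library total for the 8 genes in 4 comparisons, with exact 95% intervals. Red points are called higher, blue points called lower and grey points not called, and no ratio is drawn for Lcn2 and Ccl5 over the Dox library, where both had 0 reads.

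Fibroblast markers moved in the same comparisons as Saa3, Ptx3 and Ly6a. Their summed level was 3.23-fold higher in treated KH2 cells and 2.32-fold higher in the treated engineered line. Of the 27 markers 15 and 14 were called higher, where 3.86% and 1.34% of all genes tested were, and 0 lower in either. The medians of the markers that passed the limits were 1.48 and 1.28 on the log2 scale, against -0.02 and 0.01 for all genes tested. The sum rests partly on Fn1 and Vim. These had 309 and 207 RPKM in the treated and 213 and 166 RPKM in the untreated engineered line. Col1a1 had 218 against 25.9 RPKM there, so values scaled to the sum depend on the markers chosen. Per 1000 RPKM of summed fibroblast markers, Ptx3 had 3.62 RPKM in the treated and 0.380 RPKM in the untreated engineered line, and 3.88 and 1.14 RPKM in treated and untreated KH2 cells. Ly6a had 16.8 against 4.38 RPKM and 9.81 against 2.53 RPKM on that scale, and Saa3 42.6 against 35.5 RPKM and 13.1 against 3.96 RPKM. Only 3 of the 15 macrophage and leukocyte markers passed the limits on level in KH2 cells and 6 in the engineered line. Most of these markers thus could not be called, and 0 were called higher in either comparison. Adgre1 had 39 reads in the treated and 16 in the untreated engineered line, and 1 and 0 reads in treated and untreated KH2 cells. The part of fibroblast or leukocyte RNA in these differences was not tested.

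Loss of Erk was the third, and was measured by the authors' design at 48 hours after Dox withdrawal. The library at 96 hours was compared in the same way. Both comparisons use the same library with Dox, so their values are not independent. Cxcl1 was below 1 RPKM with Dox, so it passed the limits on level only through the libraries without Dox. At 48 hours 5 of the 8 genes passed the limits on level. Of these 4 were called higher, where 2.77% of 11386 genes were, and 0 lower, where 2.13% were. Cxcl1 rose 24.9-fold (11.9 to 62.9), with 180 reads without and 7 with Dox, Saa3 4.40-fold (2.39 to 8.75), Ccl2 4.14-fold (3.11 to 5.58) and Ly6a 3.42-fold (2.03 to 6.03). Il1rl1 had a ratio of 1.92 (1.59 to 2.33), below the limit, and 3 genes (Ptx3, Lcn2 and Ccl5) had too few reads to be called.

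At 96 hours without Dox 5 of the 8 genes passed the limits on level. Of these 3 were called higher, where 7.62% of 11804 genes were, and 0 lower, where 2.07% were. Cxcl1 rose 14.2-fold (6.64 to 36.1), Saa3 9.38-fold (5.29 to 18.1) and Ccl2 2.58-fold (1.91 to 3.53). Ly6a had a ratio of 1.49 (0.813 to 2.81) and Il1rl1 of 1.61 (1.32 to 1.97). Lcn2 had 5 reads against 0, and with a lower limit of 0.866 on its ratio a rise was not separated from counting error. No fold can be given for Ccl5, with 1 read against 0.

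The summed level of the fibroblast markers changed little in these comparisons, while single markers moved in both directions. Their sum was at 0.99-fold after 48 hours and 1.11-fold after 96 hours without Dox. Within it Fn1 rose (151, 193 and 213 RPKM with Dox, 48 hours and 96 hours without) and Vim fell (225, 170 and 166 RPKM). The medians of the markers that passed the limits were 0.04 at 48 hours and 0.38 at 96 hours on the log2 scale. For all genes tested they were -0.03 and 0.05. Of the markers 0 were called higher at 48 hours and 1, Twist1, lower. At 96 hours Dcn and Lox were called higher and Pdgfra lower. Of the 15 macrophage and leukocyte markers only 4 passed the limits on level at either time, so most could not be called. Only Lyz2 was called, higher at 48 hours (log2 ratio 1.40) and at 96 hours (1.79). Adgre1 had 16 and 16 reads, against 0 with Dox, and Ptprc 1 and 3 reads, against 3 with Dox. Of the 14 ES cell markers Nanog was higher at both times (1.91 and 1.49) and Utf1 lower (-1.56 and -1.03), while Fgf4 was higher at 48 hours (1.27) and Lin28a lower at 96 hours (-1.02). The part of these cell markers in the results was not tested. Per 1000 RPKM of fibroblast markers, Cxcl1 had 31.5 RPKM after 48 hours and 15.9 RPKM after 96 hours without Dox, against 1.25 RPKM with Dox.

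Between 96 and 48 hours without Dox the genes did not move together. Saa3 was called higher at 2.13-fold (1.56 to 2.95), where 4.55% of 11722 genes were called higher, and Ly6a lower at 2.29-fold (1.47 to 3.65), where 0.469% were called lower. Both lie near the limit: Saa3, at a log2 ratio of 1.06, was not called with TMM scaling (0.94) or DESeq2 size factors (0.92), and Ly6a, at -1.07, was not called with 1 added to the RPKM (-0.98). Cxcl1 had 105 reads against 180, a ratio of 0.569 (0.443 to 0.727), and Ccl2 164 against 256, a ratio of 0.625 (0.510 to 0.763). Il1rl1 had a ratio of 0.838 (0.711 to 0.988).

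**Figure D3:**
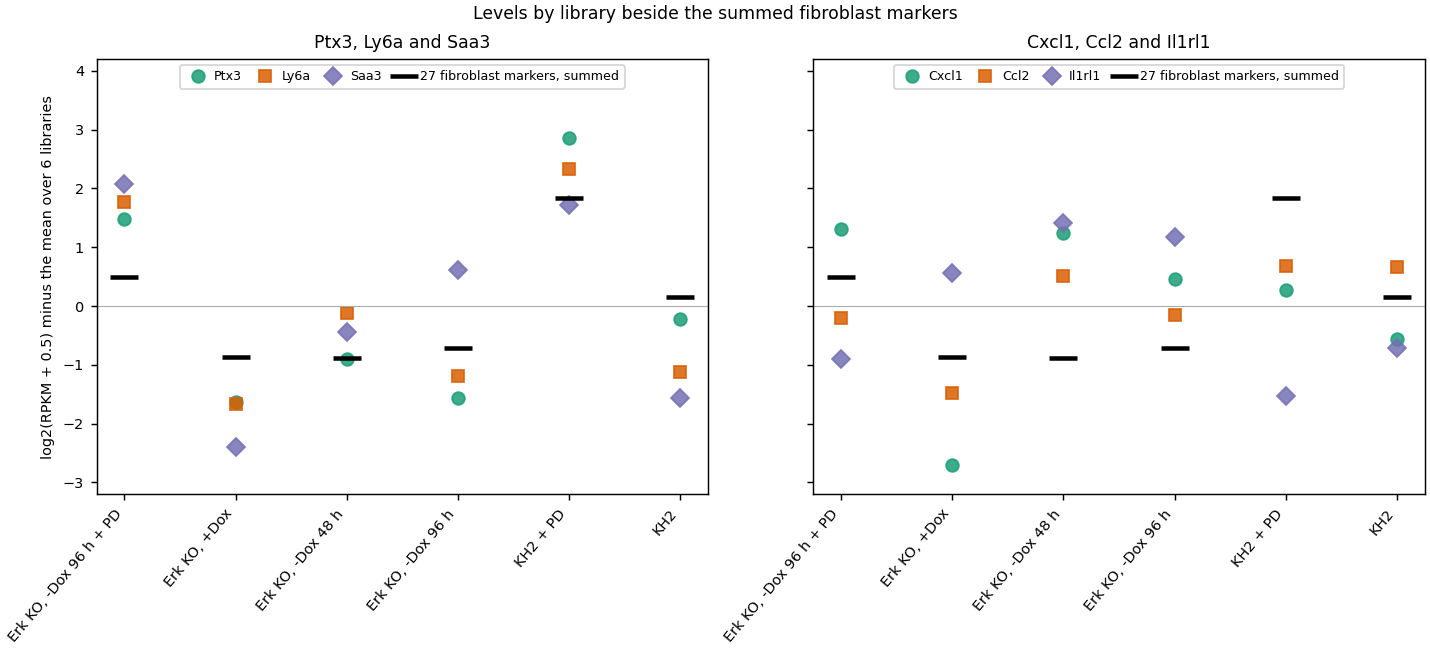
Log2(RPKM + 0.5) of 6 genes and of the summed level of 27 fibroblast markers in each library, each minus its own mean over the 6 libraries. Ptx3 and Ly6a are high in the PD0325901 libraries, where the fibroblast markers (black bars) are highest. In untreated KH2 cells, with the markers at 1257 RPKM, Ly6a (3.18 RPKM) is below its level at 48 hours without Dox (6.89 RPKM). Ptx3 is above its level at 48 hours there (1.43 against 0.696 RPKM). Cxcl1 is high at 48 and 96 hours without Dox, where the markers are at 611 and 687 RPKM.

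The engineered line with Dox was also set against untreated KH2 cells. There 6 of the 8 genes passed the limits on level. Of these 3 were called lower, where 21.4% of 12421 genes were, and 1 higher, where 2.76% were. Cxcl1 and Ptx3 were below 1 RPKM with Dox and passed only through KH2 cells. Cxcl1 fell 6.65-fold (2.98 to 17.5), Ptx3 6.47-fold (2.23 to 25.6) and Ccl2 4.61-fold (3.47 to 6.202), while Il1rl1 rose 3.07-fold (2.23 to 4.29). Lcn2 and Ccl5 had 0 reads with Dox and 12 and 10 in KH2 cells, with upper limits of 0.348 and 0.431 on their ratios. The share of lower calls over all genes is itself high, and the median log2 ratio of all genes tested was -0.37. TMM scaling moved that median by 0.39 and gave 1006 genes higher and 1419 lower. The calls of Cxcl1, Ccl2 and Il1rl1 held under every scaling and pseudocount tried, and that of Ptx3 was lost with 1 added to the RPKM (-0.99). The summed fibroblast markers were at 617 RPKM with Dox, against 1257 RPKM in KH2 cells, and their part in these values was not tested.

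With PD0325901 in both, the engineered line was called higher than KH2 cells for Ccl5 (3.497-fold, 1.26 to 11.98) and Cxcl1 (2.11-fold, 1.62 to 2.76), where 3.73% of 12642 genes were, and lower for Ptx3 (2.73-fold, 2.18 to 3.44), where 15.6% were. Saa3 had a ratio of 1.27 (1.08 to 1.501), Ly6a of 0.670 (0.570 to 0.788) and Ccl2 of 0.536 (0.437 to 0.655). Il1rl1 was below 1 RPKM in both, and 7 of the 8 genes passed the limits on level. Ccl5 was below 1 RPKM in treated KH2 cells, so it passed only through the engineered line.

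The genes with the most similar profile over the 6 libraries were found by the root mean square difference of centred log2(RPKM + 0.5), among 12569 genes with at least 100 reads. For Ptx3 these were Col1a2 (0.309), Col12a1 (0.359) and Cd248 (0.378), and for Ly6a Aspn (0.470), Col5a2 (0.531) and Postn (0.540), which are collagen, matrix and stromal surface genes. For Cxcl1 they were Dppa3 (0.329), a gene of early embryo and naive ESCs, and the chemokine gene Cxcl5 (0.439). For Saa3 the nearest were Copz2 (0.642), the interferon-induced gene Ifi204 (0.681) and Igfbp5 (0.734). For Ccl2 they were Pga5 (0.229), Smpd2 (0.287) and Gca (0.299). Those of Il1rl1 (Pou4f2, Spata22 and Ceacam1) began at 0.597, those of Ccl5 (Gbp2, Naaa and Ppp1r3b) at 0.592, and those of Lcn2 (Noxo1, Oat and Khnyn) at 0.11, a profile that rests on at most 14 reads a library. Among the members themselves Ptx3 and Ly6a were closest (0.568) and Ptx3 and Il1rl1 farthest apart (2.67).

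Neighbouring genes of the same families differed in level. Ccl7, which follows Ccl2 on chromosome 11, had 23.6 RPKM in the treated engineered line, 4.78, 18.5 and 17.9 RPKM with Dox, 48 hours and 96 hours without, and 16.8 and 13.0 RPKM in treated and untreated KH2 cells. It was thus, like Ccl2, lowest with Dox. Cxcl2, which follows Cxcl1 on chromosome 5, had at most 15 reads, and Cxcl15 on the other side at most 1. Saa4, next to Saa3 on chromosome 7, had between 0 and 12 reads. Il18r1, next to Il1rl1 on chromosome 1, had at most 5 reads. Ly6c1, next to Ly6a on chromosome 15, had 32 reads in treated KH2 cells against 1 in untreated ones. The unique reads of Ly6c1 are uncertain, since it shares windows of 50 bases with Ly6a.

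Of 28 further chemokine genes with reads, only Cxcl14 was called in the PD0325901 comparisons, higher in treated KH2 cells (log2 ratio 1.46) and in the treated engineered line (1.19), and at most 9 of the 28 passed the limits on level. After 48 hours without Dox 3 of the 28 were called higher and 0 lower, with Ccl25, a thymic and gut chemokine (2.62), Cxcl5, a ligand of Cxcr2 like Cxcl1 (2.59), and Ccl7, a monocyte attractant (1.85). After 96 hours 5 were higher and 0 lower, led by Ccl25 (3.88), Cxcl5 (2.66) and Cxcl10 (23 reads against 0). Only 6 and 8 of the 28 passed the limits on level at these times, some of them only through the library without Dox, where they were high. Of all genes tested 2.77% and 7.62% were called higher at these times. With PD0325901 the shares were 3.86% in KH2 cells and 1.34% in the engineered line.

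The list of 28 NF-kB target genes, which shares Ccl7, Ccl20, Cxcl2, Cxcl5 and Cxcl10 with the chemokines, had 3 genes higher and 2 lower in treated KH2 cells and the same counts in the treated engineered line. Nos2, the inducible nitric oxide synthase, was higher in both (log2 ratios 1.97 and 2.25), and the matrix metalloproteinase genes Mmp3 (-1.80 and -2.88) and Mmp9 (-1.70 and -1.68) lower in both. The further higher genes were Cd44 (1.43) and Ier3 (1.32) in KH2 cells, and the cytokine genes Il6 (1.86) and Il1b (1.84) in the engineered line. Dox withdrawal gave 5 higher and 0 lower at 48 hours, led by Cxcl5, Mmp3 (2.32) and Ccl7, and 8 higher and 0 lower at 96 hours, led by Mmp3 (3.48), Cxcl5 and Cxcl10. In the order given, 3.86%, 1.34%, 2.77% and 7.62% of all genes tested were called higher, and 1.22%, 0.587%, 2.13% and 2.07% lower. Between 16 and 20 of the 28 targets passed the limits on level in these 4 comparisons. Their medians were 0.52 in treated KH2 cells, 0.26 in the treated engineered line, 0.61 at 48 hours and 0.99 at 96 hours, against -0.02, 0.01, -0.03 and 0.05 for all genes tested. Some targets passed only through the library where they were high, so these medians are no support for a direction. Il1b had 24 reads in the treated engineered line and between 0 and 7 in the other libraries, and Tnf at most 6.

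Of 18 genes that encode the NF-kB factors and their inhibitors, 0 were called in treated KH2 cells, Nfkbiz, an inducible co-regulator of inflammatory genes, was higher in the treated engineered line (1.08), and Tnfaip3, an inhibitor of the pathway, was higher 48 hours after Dox withdrawal (1.03). At 96 hours Tnip1 was higher (1.05) and Bcl3 lower (-1.46). The medians lay between -0.10 and 0.22 in these 4 comparisons, and the 1 gene called higher in each of the last 3 stands beside 1.34%, 2.77% and 7.62% of all genes. Of 30 genes of IL-1 and Toll-like receptor signalling none were called in treated KH2 cells or at 96 hours without Dox, and 1 was called in each of the others, Il1b in the treated engineered line and Tlr2 (1.02) at 48 hours, with medians between 0.15 and 0.27.

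Among 24 receptors and binding partners of the 8 proteins, Mmp9, whose protein binds Lcn2, and Lrp2, an endocytic receptor that takes up Lcn2 (-1.42), were lower in treated KH2 cells, and Mmp9 in the treated engineered line. The Cxcl1 receptor gene Cxcr2 had 2.61 RPKM in the treated engineered line, 1.99, 3.15 and 3.17 RPKM with Dox, 48 hours and 96 hours without, and 6.68 and 7.67 RPKM in treated and untreated KH2 cells. Ccr1, a receptor of Ccl5, had at most 3 reads in any library. Il33, the ligand of Il1rl1, had between 0.438 and 1.64 RPKM, and Il1rap, the co-receptor, between 1.02 and 1.996 RPKM.

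Of 21 IL-6 family and C/EBP regulators the oncostatin M receptor gene Osmr was higher in treated KH2 cells (1.65) and the treated engineered line (1.45), where Il6 also was, and Cebpb was not called in any of the 4 comparisons. At 48 hours after Dox withdrawal Lif (1.16) was higher, and Cntfr was lower at 48 and 96 hours (-2.31 and -1.61). Of 11 other Ly6 family genes with reads only 3 passed the limits on level in each PD0325901 comparison. Ly6c1 (2.85) and Lynx1 (1.03) were higher in treated KH2 cells, where 3.86% of all genes tested were. Lynx1 (1.04) was higher in the treated engineered line, where 1.34% were. Ly6c1 shares windows of 50 bases with Ly6a, so its unique reads are uncertain as well. Of 26 interferon-induced genes 23 were higher and 0 lower after 96 hours without Dox, led by Isg15 (175 reads against 0), Usp18 (5.26) and Oasl2 (4.55). Of the 26 genes 25 passed the limits on level, and 8 reached 1 RPKM with Dox, so most passed only through the library without Dox. After 48 hours 6 were higher and 1, Ddx58, lower (-1.12), and with PD0325901 only Ifit1 in KH2 cells was called (1.35). Of all genes tested 7.62% were called higher at 96 hours and 2.77% at 48 hours without Dox. The 26 genes summed to 621 RPKM at 96 hours without Dox, where Ly6a had 3.01 RPKM and Ccl5 1 read. In the treated engineered line they summed to 615 RPKM, where Ly6a had 26.7 RPKM and Ccl5 19 reads. The part of interferon in the levels of Ly6a and Ccl5 was not tested.

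**Figure D4:**
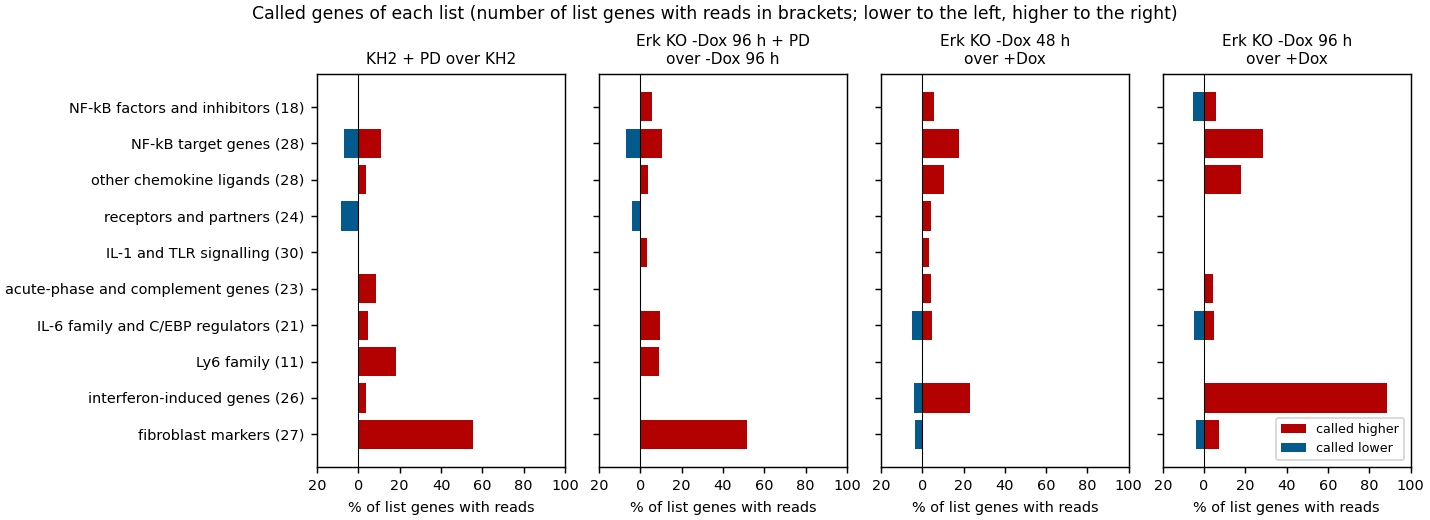
Share of the genes with reads in each list (percent, number of genes in brackets) that were called higher (red, to the right) or lower (blue, to the left) in 4 comparisons. Fibroblast markers stand out in the PD0325901 comparisons and interferon-induced genes at 96 hours without Dox, while NF-kB target and chemokine genes have 8 and 5 higher calls at that time. Of all genes tested 7.62% were called higher at 96 hours.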

How the data were processed

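PolyA RNA of 6 libraries was sequenced, and the files give per gene the uniquely mapped read count (per the file headers), the RPKM that the authors computed from it, the gene length and, as deposited, the covered percent of that length. The counts sum to the total in each header, and the RPKM was checked against count, length and total. Per the submitters' processing notes reads were placed on mm9; aligner and annotation are not given in the sources used here. A gene that a file does not list was set to 0 reads there. Files were joined by gene ID, and 18805 of 18857 IDs took their symbol from RefSeq. Gene lengths differed between files for 41 genes, and strands are not separated.

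Members, lists and comparisons were chosen with earlier results of these data known. The 7 comparisons, of which the design text names the first 3, set 1 library against another, and no test was run, since there is 1 library per group and the members were chosen from measured values. Each interval of a ratio (95%) comes from the Clopper-Pearson limits on how a gene's reads split between the pair of libraries, divided by the split of the totals, and each interval of a level from Poisson limits. The floor for a count of 0 was 3 reads. Without molecular identifiers, these intervals and the floor reflect counting error alone. Other genes were named by rule: up to 3 called genes per list and direction, and 3 nearest profiles per member. Genes named beyond these, among them those next to a member by position, were chosen after values were seen. A few results that fall under these rules are not reported here. Members of the lists are not counted in them. The size rule and the intervals were checked on simulated Poisson counts. Such counts follow the model that the intervals assume, so this check says nothing of variation between cultures. Alternatives were a pseudocount of 0.1 or 1, TMM scaling (edgeR 4.0.16), DESeq2 1.42.0 size factors and no limits on level. Analysis used Python 3.11.15 with SciPy 1.17.1 and R 4.3.3.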

Additional observations from a re-analysis of the deposited data

Results flagged for a closer look

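Ccl5 and Ccl2 had ratios of opposite sign with PD0325901 in the 2 lines. The log2 ratio of Ccl5 was 2.51 in the engineered line (19 reads against 1) and -0.72 in KH2 cells (5 reads against 10), and that of Ccl2 was -0.0528 in the engineered line and 0.0117 in KH2 cells. Only the first of these 4 values was called, the intervals of the other 3 include 1, and the difference between the lines was not tested.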

How the results depend on the processing

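Of 275 member ratios recomputed under 5 alternatives 0 changed sign after being called, and 7 changed their call. These concern Il1rl1 with PD0325901 in KH2 cells, Saa3 (2 scalings) and Ly6a between 96 and 48 hours without Dox, and Ptx3, Lcn2 and Ccl5 in the Dox-maintained line, of which the last 2 were called lower once the limits on level were dropped. Of 140 counts recomputed 21 moved by over 1.5 times. With a pseudocount of 0.1, 1 member was lower with PD0325901 in KH2 cells, and the genes called lower numbered 275 there, 112 with PD0325901 in Erk KO cells and 89 between 96 and 48 hours. With a pseudocount of 1, 44 genes were lower with PD0325901 in Erk KO cells and 160 at 48 hours without Dox, while between 96 and 48 hours 0 members were lower, 314 genes higher and 35 lower. Between 96 and 48 hours 0 members were higher under TMM scaling or DESeq2 size factors, and 85 genes were lower with DESeq2 size factors. Without limits on level 5 members were lower in the Dox-maintained line. For that line against KH2, TMM gave 1006 genes higher and 1419 lower, and DESeq2 size factors 1140 and 1316. For the treated lines, TMM gave 959 higher and 1077 lower, and DESeq2 size factors 980 and 1048. These scalings moved the median of all genes by 0.39 and 0.44 for the Dox-maintained line, 0.30 and 0.31 for the treated lines, -0.11 and -0.13 for 96 hours against Dox and -0.12 and -0.14 for 96 against 48 hours. They moved the higher share of calls to 41.5% and 46.4% from 11.4% in the Dox-maintained line, to 47.1% and 48.3% from 19.3% in the treated lines, and to 68.6% (DESeq2) from 78.7% at 96 hours. The cause of these moves was not tested. Depth limits Lcn2 and Ccl5, with at most 14 and 19 reads a library. No paired analysis was possible because each group has 1 library.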

Other observations

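Acute-phase genes other than Saa3 were mostly low. Of 23 acute-phase and complement genes with reads, Serpina3g (log2 ratio 1.58) and Cp (1.44), the ceruloplasmin gene, were higher in treated KH2 cells. In the treated engineered line 0 were called. After Dox withdrawal only A2m, the gene of a broad protease inhibitor, was called higher, at 1.55 after 48 hours and 3.55 after 96 hours. Only 10, 9, 5 and 5 of the 23 passed the limits on level in these 4 comparisons, in the order given, so most could not be called. Of all genes tested 3.86%, 1.34%, 2.77% and 7.62% were called higher. Saa2, a paralog of Saa3, had 17 reads in the treated engineered line, 0, 5 and 8 reads with Dox, 48 hours and 96 hours without, and 0 reads in both KH2 libraries. Saa1 had 3 reads in the treated engineered line, 0, 8 and 13 reads in the others of that line, and 1 and 0 reads in treated and untreated KH2 cells. Saa1 and Saa2 are near-identical copies, so their unique reads are uncertain.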
